A study of Homo sapiens with 6 samples.

Results

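Genes of the actin cytoskeleton and of serum response factor (SRF), the transcription factor that controls many of them, were followed in the human mucosal melanoma line HMV-II after knockdown of EZH2. A list of 10 genes was taken by name from the deposited table: SRF, ACTA2, TAGLN, MYL9, TPM1, TPM2, CALD1, VCL, FLNA and CNN2. Of these, 9 were found among the 30015 genes listed, and MYL9, a myosin regulatory light chain, was not analysed here. One of the 9, the tropomyosin gene TPM1, rose in the knockdown cells, to 1.90 times the control mean. None of the other 8 passed the threshold used for calls, which is that of the study's methods and asks for a change of about 1.5-fold or more and for p below 0.05 before adjustment.

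RNA was sequenced from 3 libraries named Vector, whose cells stably carry a scrambled control shRNA, and 3 named shEZH2, whose cells stably carry an shRNA against EZH2. Both kinds of cell were made with lentivirus and selected with puromycin, and neither received a further treatment. The table has 1 knockdown and 1 control line, so other effects of the shRNA cannot be told apart from the loss of EZH2. The labels do not say that the 3 libraries of a group came from separate cultures, so p-values measure only the spread between these libraries, which may be technical. In bulk RNA, fewer cells with a transcript and less transcript per cell cannot be told apart.

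Actin exists as free monomers and as filaments. Free monomers hold the SRF coactivators MRTFA and MRTFB in the cytoplasm, and when monomers are taken up into filaments, the coactivators enter the nucleus and join SRF at the CArG box, a short DNA element that carries A and T bases between CC and GG. Many SRF targets encode actin and the proteins that bind it, while the ELK factors bind with SRF at immediate early genes such as EGR1. EZH2 is the catalytic subunit of Polycomb repressive complex 2, which methylates histone H3 on lysine 27.

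CArG boxes were looked for in RefSeq promoter windows (GRCh38.p14), which run from 250 bases before to 50 bases after each start site. The box was searched on both strands as CC, 6 bases that are each A or T, and GG. Windows were at hand for 8 of the 10 genes, all but TAGLN and MYL9, and 3 of the 8 held a box: SRF itself, FLNA and CNN2. In all, 454 of 35116 promoter windows (1.29%) held one. The stretches around these boxes are shown because they are the element through which SRF acts. They are written 5′ to 3′ on the strand of the gene, with the CArG boxes in capitals. The SRF stretch lies at chr6:43171209-43171268 on the plus strand and ends at position -1 from the start site, with boxes at -30 to -21 and at -10 to -1. The FLNA stretch lies at chrX:154374689-154374758 on the minus strand, with its box at -94 to -85. The CNN2 stretch lies at chr19:1026489-1026558 on the plus strand, with its box at -89 to -80.
SRF: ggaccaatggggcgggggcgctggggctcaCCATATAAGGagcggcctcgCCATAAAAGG
FLNA: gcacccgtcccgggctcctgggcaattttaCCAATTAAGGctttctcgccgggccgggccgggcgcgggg
CNN2: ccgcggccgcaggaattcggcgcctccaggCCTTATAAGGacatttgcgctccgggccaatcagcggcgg
The SRF boxes stood in 1 of its 2 windows. The windows of ACTA2, TPM1, TPM2, CALD1 and VCL held no match, which says only that these letters do not stand in those windows. The letters TATAAA, also searched on both strands and free to overlap other elements, were found in 1 window of SRF and in 1 of the 4 windows of CALD1, against 4049 of all windows (11.5%). A match is a description of the sequence and not a measured binding site.

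EZH2, the knocked down gene, was at 483, 437 and 552 normalized counts in Vector replicates 1 to 3 and at 237, 247 and 225 in shEZH2 replicates 1 to 3. A normalized count is the number of reads counted on a gene divided by one size factor per library. Its log2 fold change was -1.04 ± 0.14 (SE, n = 3 and 3; adjusted p = 0.0142), and the groups did not overlap. Depth ranged from 13400290 to 15923029 reads in Vector libraries and from 16129171 to 19128939 in shEZH2 libraries. Vector replicate 2 stood apart from the other control libraries by gene length: its values were a median of 0.84 times theirs in 2611 genes of 3000 to 4300 bases and 1.42 times theirs in 1954 genes over 9500 bases. A weaker trend in the opposite sense was found in shEZH2 replicate 1. Its median log2 deviation from the mean of all libraries was 0.24 in the shortest length quintile and -0.19 in the longest. In Vector replicate 2 these were -0.49 and 0.37, so leaving out Vector replicate 2 does not remove all of the trend. Each of the 9 genes is therefore given without Vector replicate 2 and with the length trend removed from every library as well. The other genes are given without Vector replicate 2 where that ends a call. Unless another tool is named, adjusted p-values come from limma (two-sided), with Benjamini-Hochberg adjustment across the genes tested in each fit. These were 15251 with all libraries and 15123 to 15288 with one library left out. Limits given over the alternatives run also take in DESeq2 and edgeR.

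SRF had the smallest standard error of the 9 genes. It encodes the transcription factor at the head of the list and lies on chromosome 6 from 43171299 to 43181507 (ENSG00000112658). Its values were 955, 981 and 968 normalized counts in Vector libraries and 1127, 1077 and 1108 in shEZH2 libraries. Every knockdown library was above every control library, but the step was small, with group means of 968 ± 13.4 and 1104 ± 25.3 (SD, n = 3 each). Its fitted log2 fold change was 0.19 ± 0.12 (SE; adjusted p = 0.361), with a 95% confidence interval of -0.08 to 0.46, which lies below the size used for calls. It was 0.20 without Vector replicate 2 and 0.13 with the length trend removed.

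TPM1 was the member that passed the threshold. Tropomyosins lie along the actin filament and govern which other proteins reach it, and TPM1 lies on chromosome 15 from 63042632 to 63071915 (ENSG00000140416). Vector libraries held 1895, 1469 and 1963 normalized counts and shEZH2 libraries 3201, 3669 and 3265. The groups were far apart, with the lowest knockdown library well above the highest control library. Means were 1776 ± 268 and 3379 ± 254 (SD, n = 3 each), and the log2 fold change was 0.94 ± 0.16 (SE; adjusted p = 0.0249; 95% confidence interval 0.57 to 1.30). Vector replicate 2 was the lowest control. Leaving it out gave a log2 fold change of 0.81 (adjusted p = 0.000152). Removing the length trend gave 1.18 ± 0.25 (SE; adjusted p = 0.0303). TPM1 is a long gene (12876 bases) that did not follow this trend. Vector replicate 2 was at 0.762 times the mean of the other controls, beside a median of 1.42 in genes over 9500 bases. The removal therefore moved TPM1 away from its value without that library, and 1.18 is not a check on the size of the change. TPM1 stayed past the threshold with any one library left out, but its adjusted p was then between 0.0655 and 0.151 for each library other than Vector replicate 2. TPM1-AS, an antisense gene that shares 3354 bases with TPM1, held a mean of 15.7 normalized counts, too few to set the TPM1 value.

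TPM2, the other tropomyosin gene listed, lies on chromosome 9 from 35681992 to 35690121 (ENSG00000198467) and varied most between libraries. Its values were 187, 53.6 and 170 normalized counts in Vector libraries and 280, 158 and 150 in shEZH2 libraries. The groups overlapped, and Vector replicate 2 was at 0.30 times the mean of the other controls. TPM2 had a log2 fold change of 0.65 ± 0.49 (SE; adjusted p = 0.446) with all libraries, 0.07 without Vector replicate 2 and 0.53 with the length trend removed.

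Shares of the summed tropomyosin level put both genes beside their paralogs TPM3 and TPM4. The level per base uses a single length per gene (12876 bases for TPM1 and 8632 for TPM4). That length need not be the length of the transcripts made, and the shares depend on it. Per base of gene length, TPM1 made up 7.36%, 7.75% and 7.60% of the sum of the 4 genes in Vector libraries and 12.3%, 13.4% and 11.9% in shEZH2 libraries. TPM4 made up 43.7%, 46.6% and 43.1% in Vector libraries and 31.8%, 32.8% and 31.9% in shEZH2 libraries. Neither share overlapped between the groups, and Vector replicate 2 stood close to the other controls in both. The TPM1 share was higher by 4.95 percentage points (7.57 ± 0.199 against 12.5 ± 0.778%, SD, n = 3 each; exact two-sided permutation p = 0.1, the smallest that 3 against 3 allows), and by 4.52 to 5.27 with any one library left out. The TPM4 share differed by -12.3 percentage points (exact two-sided permutation p = 0.1). Shares of TPM2 and TPM3 were not worked out. Per base of gene length and by depth, the mean level of TPM3 was 52.0 in Vector and 71.1 in shEZH2 libraries. That of TPM4 was 50.2 and 43.6, and that of TPM1 8.57 and 17.0. TPM1 was therefore not the only gene of the 4 that gained level against TPM4. As single genes, TPM3 (log2 fold change 0.41, and 0.24 without Vector replicate 2) and TPM4 (-0.25, and -0.37) were not called. Reads that these paralogs share could have been split among them.

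ACTA2 and TAGLN are classical smooth muscle targets of SRF: the first encodes smooth muscle actin and the second transgelin, a protein that binds actin filaments. Both were scarce in these melanoma cells. ACTA2 (ENSG00000107796), on chromosome 10 from 88935074 to 88991339, held 39.7, 27.9 and 52.9 normalized counts in Vector libraries and 64.7, 81.5 and 45.8 in shEZH2 libraries. The third library of the knockdown fell within the control range, so the groups overlapped. ACTA2 had a log2 fold change of 0.67 ± 0.32 (SE; adjusted p = 0.255), large enough for a call but with too wide a spread, of 0.43 without Vector replicate 2 and of 0.54 with the length trend removed. It was 0.88 and past the threshold without Vector replicate 3 (adjusted p = 0.208), and also without shEZH2 replicate 3 (adjusted p = 0.325). STAMBPL1, which runs on the opposite strand, shares 40080 bases with ACTA2 and averaged 784 normalized counts. Whether the counting used strand is not given in the sources used here, so the ACTA2 value is uncertain.

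TAGLN (ENSG00000149591), on chromosome 11 from 117199321 to 117204782, held 59.6, 73.3 and 60.1 normalized counts in Vector libraries and 101, 81.5 and 84.0 in shEZH2 libraries. All 3 knockdown libraries were above all 3 controls. Its log2 fold change of 0.46 ± 0.19 (SE; adjusted p = 0.205) was short of the size for a call, though its unadjusted p was under 0.05. It was 0.56 without Vector replicate 2 and 0.38 with the length trend removed. PCSK7, on the opposite strand, shares 446 bases with TAGLN and averaged 609 normalized counts.

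CNN2 encodes calponin 2, an actin-binding protein of the calponin family that is made outside muscle, and it is one of the 3 members whose promoter window holds a CArG box. It lies on chromosome 19 from 1026581 to 1039068 (ENSG00000064666). Vector libraries held 661, 764 and 632 normalized counts and shEZH2 libraries 960, 894 and 1014. The groups did not overlap, and each group spread little, with means of 686 ± 69.1 and 956 ± 59.9 (SD, n = 3 each). CNN2 had a log2 fold change of 0.48 ± 0.14 (SE; adjusted p = 0.093; 95% confidence interval 0.16 to 0.80), under the size for a call. Without Vector replicate 2 it was 0.56 (adjusted p = 0.00336), while removal of the length trend gave 0.39 (adjusted p = 0.142).

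CALD1, VCL and FLNA are long genes whose means were lower in the knockdown, and none of them was called. CALD1 (ENSG00000122786), on chromosome 7 from 134744252 to 134970728, encodes caldesmon, which restrains myosin on actin filaments. It held 3030, 3348 and 3160 normalized counts in Vector libraries and 2596, 3047 and 2810 in shEZH2 libraries. The groups overlapped by a single library of the knockdown. Its log2 fold change was -0.18 ± 0.13 (SE; adjusted p = 0.441), -0.14 without Vector replicate 2 and 0.01 with the length trend removed.

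VCL (ENSG00000035403), on chromosome 10 from 73995193 to 74121363, encodes vinculin, which ties actin to adhesion sites. It held 2269, 3347 and 2234 normalized counts in Vector libraries and 1672, 2087 and 2195 in shEZH2 libraries. The knockdown libraries were all lower than the controls, by a narrow margin between the nearest ones. Vector replicate 2 was at 1.49 times the mean of the other controls, and the log2 fold change was -0.38 ± 0.20 (SE; adjusted p = 0.296) with it, -0.19 without it and also -0.19 with the length trend removed.

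FLNA (ENSG00000196924), on chromosome X from 154348524 to 154374638, encodes filamin A, which crosslinks actin filaments, and its promoter window holds a CArG box. It was the most abundant member, at 59782, 123998 and 59227 normalized counts in Vector libraries and 70101, 63316 and 75161 in shEZH2 libraries. Vector replicate 2 alone was above all the others, at 2.08 times the mean of the other controls. FLNA took 0.365 to 0.795% of the reads of Vector libraries and 0.415 to 0.478% of those of shEZH2 libraries. With all libraries its log2 fold change was -0.13 ± 0.32 (SE; adjusted p = 0.817). Without Vector replicate 2 it was 0.22 (adjusted p = 0.136), so 1 library set its direction. Removal of the length trend gave 0.07.

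**Figure D1:**
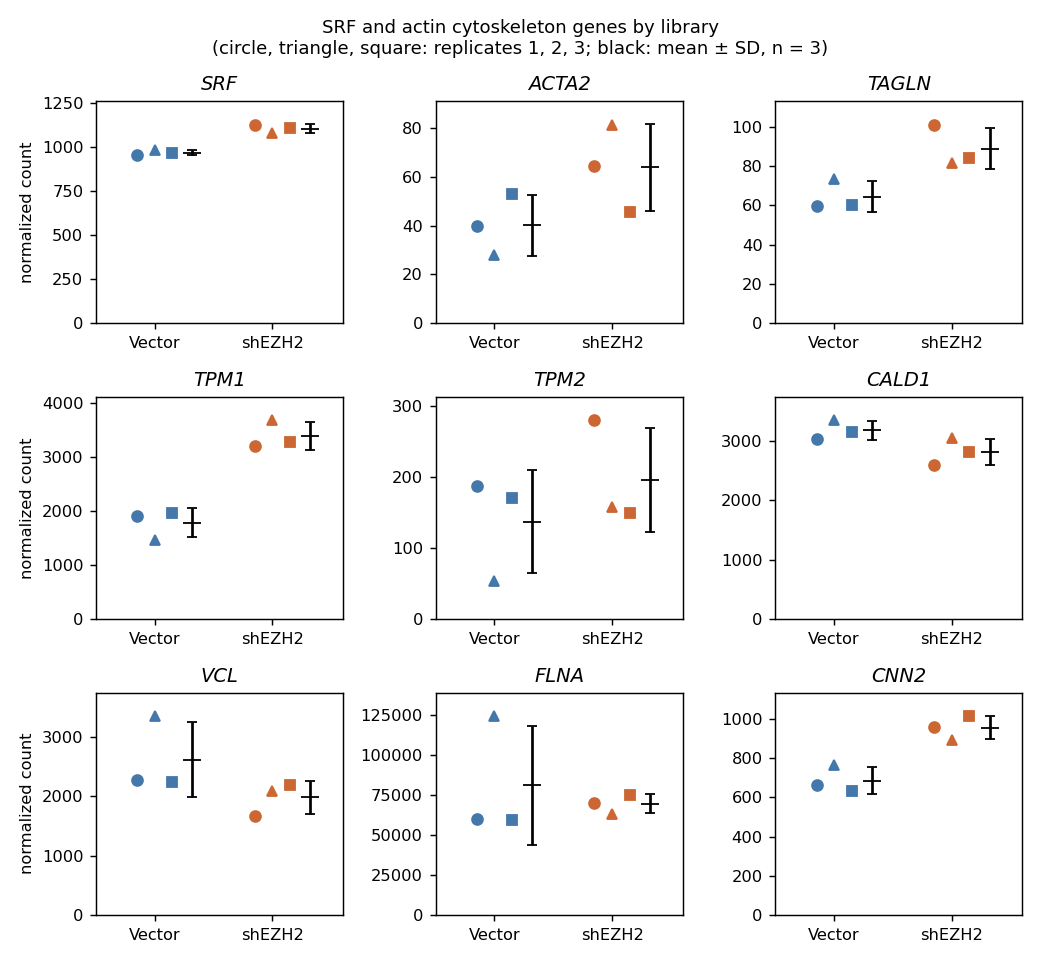
Normalized counts of the 9 genes in each library on axes that start at 0, with Vector in blue and shEZH2 in orange. TPM1 lies at 1469 to 1963 in Vector libraries and 3201 to 3669 in shEZH2 libraries, and the Vector triangle (replicate 2) stands apart for FLNA (123998), VCL (3347) and TPM2 (53.6).

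Taken as a list, 1 of the 9 genes tested was called higher, beside 7.55% of the 15251 genes tested, and 0 were called lower, beside 7.07%. At an adjusted p under 0.05 the list held 1 higher gene, beside 2.28% of all genes, and 0 lower genes, beside 1.84%. These shares are too close to those of all genes to make a result about the list as a whole. At an unadjusted p under 0.05, limma found 3 higher genes (TPM1, CNN2 and TAGLN), beside 11.9% of all genes, and 0 lower, beside 11.3%, and edgeR also found 3 and 0, while DESeq2 found 2 and 0. The groups did not overlap in 4 genes that were higher in the knockdown (SRF, TAGLN, TPM1 and CNN2), beside 18.4% of all genes, and in 1 that was lower (VCL), beside 16.5%. The log2 fold change was above 0 in 6 genes and below 0 in 3. The median of the 9 log2 fold changes was 0.46, beside 0.04 over all genes tested, and it was 0.22 without Vector replicate 2 and 0.38 with the length trend removed.

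**Figure D2:**
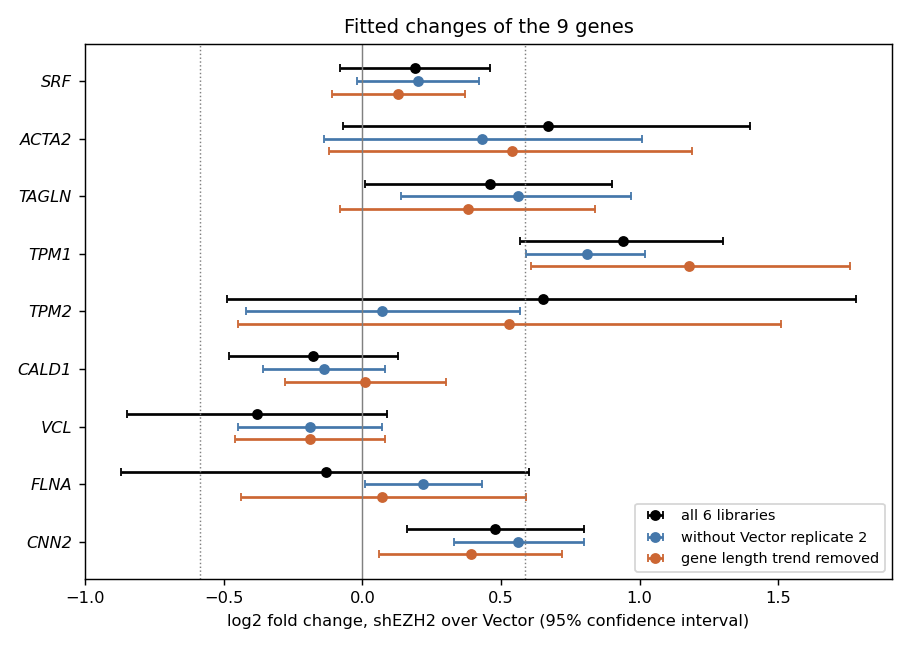
Fitted log2 fold changes of the 9 genes with 95% confidence intervals, for all 6 libraries (black), without Vector replicate 2 (blue) and with the length trend removed (orange). Dotted lines mark the size for a call, about 1.5-fold. TPM1 is at 0.94, 0.81 and 1.18 in the 3 fits, TPM2 moves from 0.65 to 0.07 without Vector replicate 2, and FLNA moves from -0.13 to 0.22.

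Levels of different genes were compared per length, as RPKM, which divides the reads of a gene by its length and by the depth of the library. The same single length per gene was used, so the order of the genes depends on it. In Vector libraries the order from high to low was FLNA (480), CALD1 (20.1), VCL (16.4), SRF (14.4), CNN2 (11.7), TPM1 (8.57), TPM2 (2.60), TAGLN (1.02) and ACTA2 (0.838), each a mean of 3 libraries. CALD1, VCL and SRF were not all apart: the range of VCL over the Vector libraries overlapped those of CALD1 and SRF, and the ranges of TPM2 and ACTA2 overlapped that of TAGLN. Without Vector replicate 2, VCL (13.8) came just below SRF (14.0), and TAGLN (0.937) just below ACTA2 (0.956). In shEZH2 libraries SRF, TPM1 and CNN2 shared a mean level of 17.0, beside CALD1 (18.5), whose range overlapped theirs, and above VCL (12.8). FLNA (425) was again highest, and TPM2 (3.91), TAGLN (1.47) and ACTA2 (1.40) were again lowest. The smooth muscle genes ACTA2 and TAGLN therefore stood far below FLNA, CALD1, VCL, CNN2 and TPM1 in both groups. TPM2 was nearer to them, and in Vector libraries its range overlapped that of TAGLN. For scale, the group means of the cytoplasmic actins ACTG1 (850 in Vector and 1571 in shEZH2) and ACTB (703 and 988) stood above those of FLNA. FLNA reached 751 in Vector replicate 2, so this order holds for the means and not for every single library.

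The other genes of the system were taken from 5 lists of 72 genes, of which 69 had values and 64 were tested. CNN1, MYOCD and TMSB4X were not analysed here. In the 5 lists together 13 genes were called higher (20.3%) and 3 lower (4.69%), beside 7.55% and 7.07% of all genes tested. The counts of the single lists below stand beside the same shares of all genes. The lists were chosen with earlier results of these data known, and the shares were not tested against each other. Without Vector replicate 2, 9 of the 13 and 2 of the 3 were called again, and those lost were ARPC1A, CFL1, FHL2, TAGLN2 and ELK4. Leaving out shEZH2 replicate 1 kept 8 of the higher and 2 of the lower calls, replicate 2 of that group 10 and 3, and replicate 3 of that group 9 and 2. The calls lost were again among these 5 genes, with GSN lost besides without shEZH2 replicate 1 and without Vector replicate 3.

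The cofactors of SRF gave 1 higher and 1 lower call among 7 genes tested, and 0 at an adjusted p under 0.05. FHL2, a LIM protein that binds SRF, rose by 0.63 on the log2 scale (adjusted p = 0.159). ELK4, which binds DNA with SRF, fell by 0.71 (adjusted p = 0.169). Neither call held without Vector replicate 2, where the log2 fold changes were 0.36 and -0.42. The coactivators MRTFA (log2 fold change 0.21) and MRTFB (-0.45), the ELK factors ELK1 (-0.00) and ELK3 (-0.45), and SCAI (-0.40), which represses MRTFA, were not called. Without Vector replicate 2, MRTFB was at -0.17 and SCAI at -0.14, and the median of the list moved from -0.40 to -0.14, or to -0.15 with the length trend removed.

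In the list of actin isoforms, which leaves out ACTA2, each of the 3 genes tested was higher in the knockdown, and 2 were called. ACTA2, given above, had overlapping groups and was not called. ACTG2, the enteric smooth muscle actin, held 5.23, 2.33 and 4.07 normalized counts in Vector libraries and 30.5, 25.6 and 43.9 in shEZH2 libraries. It was near the limit of counting in the controls, where one library held only 2 reads, so its log2 fold change of 2.83 ± 0.40 (SE; adjusted p = 0.0158) depends on the pseudocount and lay between 2.09 and 3.11 over the alternatives run. The adjusted p of ACTG2 was at most 0.141 over these alternatives. ACTG1, a cytoplasmic actin, held 45078, 34604 and 43108 in Vector libraries and 73309, 69930 and 74825 in shEZH2 libraries, with a log2 fold change of 0.84 ± 0.19 (SE; adjusted p = 0.0549). ACTB, the other cytoplasmic actin, was higher in all 3 knockdown libraries but was not called (log2 fold change 0.45, adjusted p = 0.202). ACTG1 made up 59.2%, 46.9% and 58.3% of the summed level of both cytoplasmic actins per base in Vector libraries and 61.0%, 61.8% and 61.4% in shEZH2 libraries. The difference of 6.59 percentage points was 2.63 without Vector replicate 2. The muscle actins ACTA1 (0 to 6.11 normalized counts) and ACTC1 (0 to 2.33) were too low to be tested. Actin genes are close paralogs, and how reads that match several of them were counted is not given in the sources used here.

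The list of contractile and stress fibre genes gave 6 higher calls and 1 lower call among 22 genes tested. FHL1, a LIM protein of muscle and of stress fibres, rose by 1.03 on the log2 scale (adjusted p = 0.0224). PDLIM7, an adaptor of the actin cytoskeleton, rose by 0.79 (adjusted p = 0.0399), and SMTN, which encodes smoothelin, rose by 0.65 (adjusted p = 0.0422). Over the alternatives run, the adjusted p was at most 0.151 for FHL1, 0.197 for PDLIM7 and 0.196 for SMTN. PDLIM1 (0.99, adjusted p = 0.0685), the myosin light chain kinase gene MYLK (0.90, adjusted p = 0.0514) and the transgelin paralog TAGLN2 (0.86, adjusted p = 0.161) also rose at the unadjusted threshold, TAGLN2 not without Vector replicate 2 (0.48). LPP, a LIM protein of adhesion sites, fell by 1.14 (adjusted p = 0.0996), with 3416, 7448 and 3402 normalized counts in Vector libraries and 1533, 2406 and 2186 in shEZH2 libraries. Its highest value by far was in Vector replicate 2, and without that library its log2 fold change was -0.77. The median log2 fold change of the list was 0.36, beside 0.04 over all genes.

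Among 24 genes of actin turnover, 3 were called higher and 0 lower. GSN encodes gelsolin, which severs and caps filaments, and it rose by 0.63 on the log2 scale (adjusted p = 0.0497, and at most 0.229 over the alternatives run). CFL1, the main cofilin gene (1.01, adjusted p = 0.212), and ARPC1A, a subunit of the Arp2/3 complex (0.66, adjusted p = 0.196), were called with all libraries. Neither was called without Vector replicate 2, where they were at 0.46 and 0.34. AC004922.1, on the same strand, shares 40353 bases with ARPC1A and held a mean of 4.05 normalized counts. How reads that match both genes were counted is not given in the sources used here, so the ARPC1A value is uncertain.

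The immediate early genes parted within a single family. EGR1 held 1870, 2138 and 1699 normalized counts in Vector libraries and 4974, 4925 and 5137 in shEZH2 libraries, and rose by 1.40 ± 0.14 on the log2 scale (SE; adjusted p = 0.00607, and at most 0.0765 over the alternatives run). EGR3 held 596, 629 and 604 in Vector libraries and 348, 398 and 382 in shEZH2 libraries, and fell by 0.70 (adjusted p = 0.0304, and at most 0.181 over the alternatives run). Neither gene overlapped between the groups, and the log2 fold changes were 1.49 and -0.68 without Vector replicate 2. The other 6 genes of the list were not called, among them FOS (0.41, and 0.20 without Vector replicate 2) and EGR2 (-0.03).

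**Figure D3:**
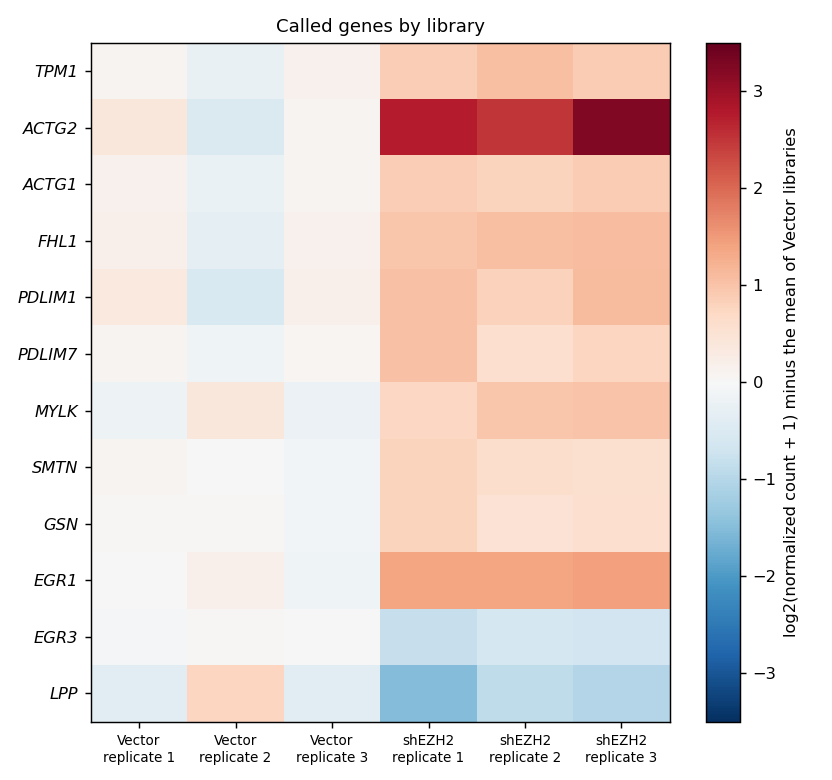
Each of 12 called genes in each library, as log2(normalized count + 1) minus the mean of the 3 Vector libraries of that gene (color scale, log2 units). EGR1, FHL1 and TPM1 have much the same color in all 3 shEZH2 libraries, EGR3 is blue in all 3, and LPP is highest in Vector replicate 2.

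A CArG box was found in the promoter windows of other genes of these lists as well. It stood in those of 4 of 4 genes with a window in the list of actin isoforms (ACTA1, ACTC1, ACTG1 and ACTG2). ACTA2, the actin gene among the 9, is not in that list and held no box in its 2 windows. A box also stood in the windows of 7 of 24 contractile genes (TPM4, MYLK, SMTN, ACTN1, LPP, FHL1 and TES), and of 2 of 6 immediate early genes (EGR1 and EGR2). It also stood in those of FHL2 among 7 SRF cofactors and of 0 of 23 genes of actin turnover. Among the 9 genes, the 3 with a box were SRF, FLNA and CNN2, none of which was called, while TPM1, which was called, had none in its single window.

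Over all genes tested that have a window, 163 held a CArG box. Of these, 24 were called higher (14.7%) and 10 lower (6.13%), beside 792 (7.72%) and 697 (6.80%) of 10256 genes without one. At an adjusted p under 0.05, 12 genes with a box were higher and 1, PHTF1, was lower. The 12 included FHL1, SMTN, EGR1 and ACTG2 of the lists above, and TGFB1I1 (0.73), MYADM (0.90), MPP2 (0.97), NR2F1 (1.24), FSTL3 (1.26) and DACT3 (1.70), given with their log2 fold changes and named after their values were seen. Each of the genes named here had an adjusted p over 0.05 in some of the alternatives run. The median log2 fold change was 0.11 with a box and 0.05 without a box. These medians were 0.02 and -0.00 when Vector replicate 2 was left out, and 0.13 and 0.07 with the length trend removed. These counts were not tested against each other.

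Markers of other cells were looked at because smooth muscle cells and fibroblasts carry many of the same genes. Of 12 such markers 10 had values, and in sum they held 324 to 369 normalized counts in Vector libraries and 365 to 425 in shEZH2 libraries. A mean under 10 was found for 6 of the 10, and DCN and COL3A1 were under 1. LUM was called higher (log2 fold change 0.74) and COL1A2 lower (-0.83), and MYH11, the smooth muscle myosin gene, was not called (-0.64, and -0.17 without Vector replicate 2). The COL1A2 call was lost with the length trend removed (-0.61), without Vector replicate 1 and without shEZH2 replicate 2. ACTG2, a smooth muscle marker of this list, was also called higher (2.83, adjusted p = 0.0158), from near the limit of counting in the controls. ACTG2 and MYH11 also belong to the actin and contractile lists above. The 8 melanocyte markers with values summed to 75515 to 100744 in Vector libraries and 78898 to 85355 in shEZH2 libraries, so the defining genes of the labelled melanoma were present throughout. TYRP1 (1.68) and MLANA (0.88) were called higher and TYR (-0.97) lower. The MLANA call was lost without Vector replicate 2 (0.39), without any one shEZH2 library and with edgeR. The part of these markers in the values of the 9 genes was not tested.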

How the data were processed

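Libraries were grouped by their labels into Vector and shEZH2, 3 each. Per the study's methods, featureCounts 1.5.0-p3 and DESeq2 1.20.0 were used by the authors to count reads and compare groups. The aligner, the use of strand and the treatment of reads with several matches are not given in the sources used here. The deposited signal values are reads divided by one size factor per library. All values (100%) were whole multiples of what 1 read is worth, within 1e-06, which gave back the reads. The deposited group means, log2 fold changes and p-values of the authors were not used, and 0 library columns were left out. The labels list hg19, but table coordinates are GRCh38: 47.7% of 20592 genes share a start or end with RefSeq GRCh38 and 0.709% with GRCh37.

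Groups were compared with limma 3.58.1 (lmFit, eBayes with trend) on log2(normalized count + 1) over 15251 genes with a mean of at least 10, with no replicate block. Fold changes are on that scale, which understates those of low genes. A gene was called at p below 0.05 before adjustment if it also changed by about 1.5-fold or more, after the study's methods. The exact two-sided permutation test was used for the shares of summed levels. The models were tested on simulated counts that held no gene length trend and no deviating library. That test therefore cannot show how the models deal with these features of the data. All 10 members were to be named, and of the other lists the SRF cofactors and actin isoforms, genes with an adjusted p under 0.05, and up to 6 called genes per list with a mean of at least 50. Genes named beyond this rule (not called, or with a CArG box) were chosen after their values were seen. The members and lists were chosen with earlier results of these data known. Results of some genes and of 1 further list are not reported here, and totals over the lists leave that list out.

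Alternatives were DESeq2 1.42.0 and edgeR 4.0.16 (TMM or RLE) on recovered reads, limma with TMM or upper-quartile factors, a pseudocount of 0.1 or 5, a minimum mean of 50 or none, protein-coding genes only, a replicate block, removal of a loess length trend (span 0.3) within each library, a fold change threshold of 1, and each library left out in turn. R 4.3.3, Python 3.11.15, pandas 2.3.3 and matplotlib 3.10.9 were used.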

Additional observations from a re-analysis of the deposited data

How the results depend on the processing

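Over the alternatives run, 172 of 180 values of the 9 genes kept their direction and side of the threshold. With the length trend removed, with or without a replicate block, the log2 fold changes of CALD1 and FLNA turned to 0.01 and 0.07, and with one library left out that of FLNA lay between -0.31 and 0.22, above 0 without Vector replicate 2. That of ELK1 lay between -0.02 and 0.04, above 0 without Vector replicate 1 and without shEZH2 replicate 2. The number of the 9 genes called higher was 1 to 2 with one library left out, where ACTA2 was added, and 0 at a fold change threshold of 1. The number higher at an adjusted p under 0.05 was 0 to 2 with one library left out, where CNN2 was added without Vector replicate 2. Calls in the other 5 lists numbered 8 to 15 higher and 2 to 5 lower with one library left out, and 4 and 1 at a fold change threshold of 1. The log2 fold change of EZH2 lay between -1.12 and -0.96 with one library left out. The causes were not tested.

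Replicate numbers were compared as a possible pairing. Deviations of libraries with the same number correlated at 0.275, 0.219 and -0.111, so the numbers were not taken to pair the libraries. With the replicate block, 0 of the 9 genes were higher at an adjusted p under 0.05 (TPM1, 0.051), and it changed no other call of these genes. Over all genes, calls at an adjusted p under 0.05 numbered 348 higher and 281 lower, 770 and 874 with DESeq2, 671 and 570 with the length trend removed, 224 and 200 with the block, and 3 to 1500 and 1 to 1388 with one library left out, the most without Vector replicate 2. With DESeq2, 1045 genes were called higher and 1321 lower, against 1151 and 1078. With 3 libraries a group, the 95% intervals of ACTA2, TAGLN, TPM2, VCL, FLNA and CNN2 held changes past the size for a call, and those of SRF and CALD1 did not.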
